A study of Mus musculus with 12 samples.

Results

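The 10 genes described here make, release or sense prostaglandins and leukotrienes. They were taken as a list of names, which was chosen with earlier results of these data known. All 10 were found among the 49585 genes of the count table, and all 10 were among the 18451 genes with enough counts to be tested. They were followed in nuclear RNA of mouse spinal cord microglia in 12 libraries, 3 from sham animals and 3 each from animals 3, 7 and 14 days after spinal cord injury. Every group was of strain C57BL/6, and each library pooled cord from 3 animals, taken 5 mm to either side of the injury site. The sham animals carried the label of 7 days, so each injured group was compared with sham tissue of that 1 time. Nuclei carrying green fluorescent protein (GFP) were captured with an anti-GFP antibody and magnetic beads. The labels used here name neither the transgene that marks these nuclei nor the age and sex of the animals. Libraries were separate pools of animals, so the p-values measure the spread between pools.

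Prostaglandins and leukotrienes are short-lived lipid signals made from arachidonic acid, which phospholipases and related lipases free from membranes. In the prostaglandin branch, a cyclooxygenase makes the common precursor prostaglandin H2, and a terminal synthase turns it into prostaglandin D2, prostaglandin E2, prostacyclin or thromboxane. Cyclooxygenase-1 (Ptgs1) is the constitutive form and is known as a microglial gene in brain and cord, whereas cyclooxygenase-2 (Ptgs2) is an early-response gene induced by inflammatory stimuli in many cell types. In the leukotriene branch, 5-lipoxygenase (Alox5) works with its activating protein FLAP (Alox5ap) to make leukotriene A4, which becomes leukotriene B4 or, through leukotriene C4 synthase (Ltc4s), the cysteinyl leukotrienes.

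Total counts ranged from 4003480 to 10670804 per library, and levels are given as CPM (the count scaled to a common library size) after TMM scaling. The summed level of 10 microglial markers was 4985 to 6392 CPM in sham, 3328 to 3969 CPM at 3 days, 4272 to 5600 CPM at 7 days and 3671 to 4505 CPM at 14 days, and none of the 10 was at 0 in any library. Of these 10 markers 4 fell at 3 days, none at 7 days and 3 at 14 days by edgeR's quasi-likelihood test. Transcripts of other cells were present as well: 9 neuronal markers summed to 714 to 3314 CPM and 8 astrocyte markers to 610 to 5093 CPM over the libraries. In such bulk nuclear RNA, fewer cells of a type and less RNA per cell cannot be told apart.

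Of the 10 genes, 9 differed between groups by edgeR's quasi-likelihood test across all 4 groups, beside 26.4% of all tested genes, and Ltc4s did not (Benjamini-Hochberg adjusted p = 0.197). At 3 days 4 of the 10 rose against sham (10.9% of all tested genes rose) and 2 fell (9.17% of all fell). At either sign this was 6 of the 10 at 3 days, beside 20% of all. At 7 days 3 rose (4.61% of all) and 0 fell (4.67% of all), beside 9.28% of all that changed. With an unadjusted p under 0.05, 4 of the 10 passed at 7 days in either direction, beside 26.4% of all tested genes. At 14 days 4 rose (5.02% of all) and 3 fell (4.79% of all), so 7 changed beside 9.82% of all. In every one of the 10 genes the 3 libraries of 3 days lay wholly above or wholly below the 3 sham libraries, which held for 34.2% of all tested genes. The same was so for all 10 at 14 days, beside 29.7% of all tested genes, and for 3 of the 10 at 7 days, beside 22.8%. The median log2 fold change of the 10 was -0.40 at 3 days, 0.04 at 7 days and 0.43 at 14 days, where the median of all tested genes was -0.03, 0.01 and -0.05. Because the list was chosen with earlier results known, setting its counts beside those of all genes is a description and does not measure enrichment.

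**Figure D1:**
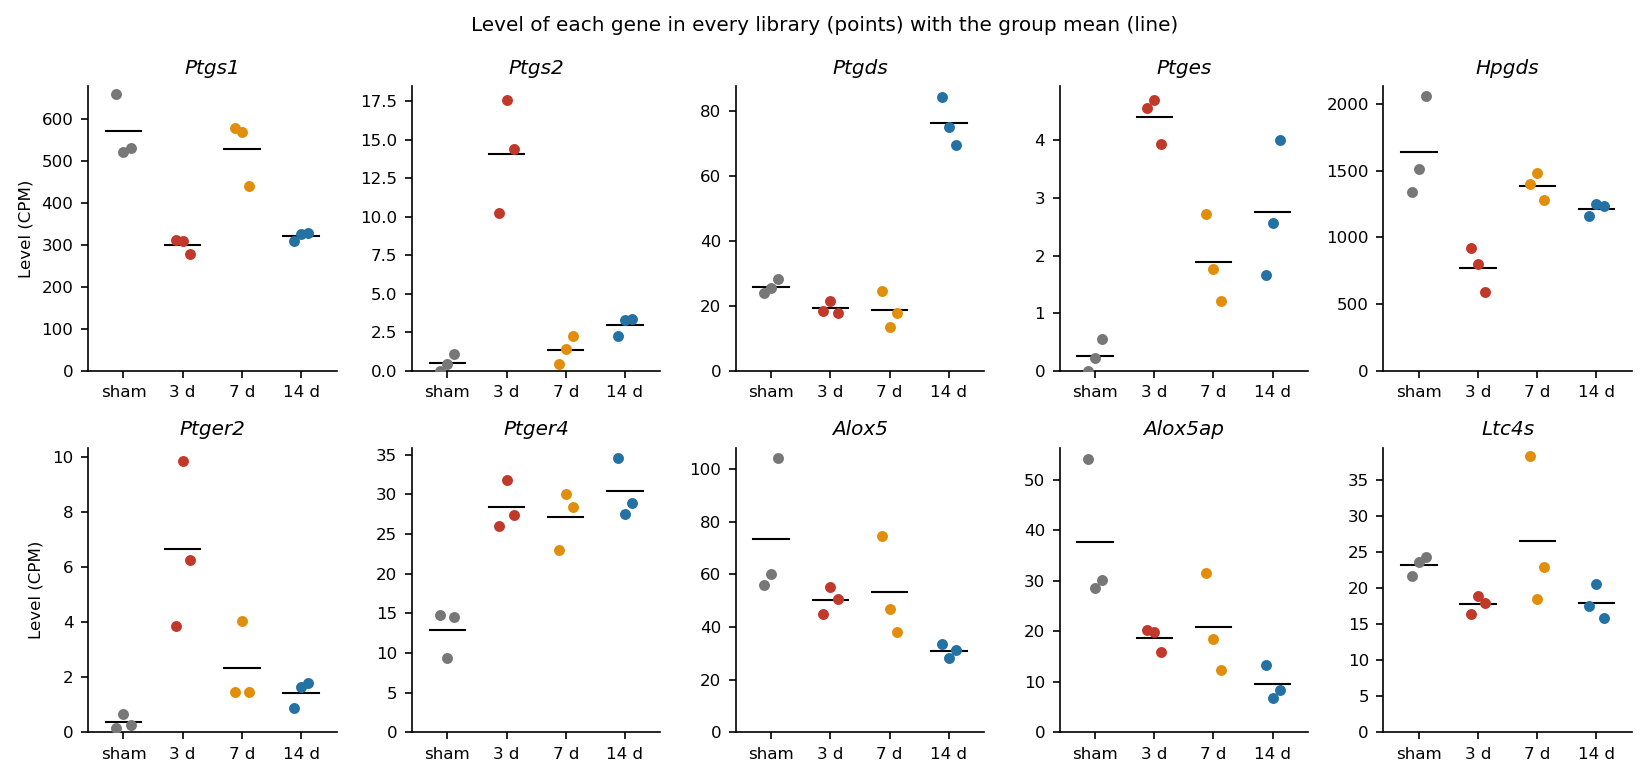
Level of each of the 10 genes in CPM (linear vertical axes starting at 0) in every library, 3 points per group, with a black line at the group mean. Ptgs1 and Hpgds are low at 3 days, Ptgs2 and Ptger2 are highest at 3 days, and Ptgds is highest at 14 days, where its 3 libraries lie between 69.7 and 84.2 CPM.

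Levels of different genes were compared per length, in the authors' RPKM (reads scaled by gene length and library size). In sham, Hpgds led with a mean of 245 ± 45.8 RPKM (SD, n = 3), followed by Ptgs1 with 142 ± 18.6 RPKM. Then came Ltc4s with 30.5 RPKM, Alox5ap with 25.4 RPKM, Alox5 with 17.1 RPKM and Ptgds with 15.2 RPKM, and in this run each gene's libraries overlapped those of the next. Ptger4 followed with 1.85 RPKM, while Ptgs2, Ptger2 and Ptges lay between 0.0632 and 0.108 RPKM with overlapping libraries. Hpgds and Ptgs1 kept the first and second rank at all 3 times after injury without overlap between them. Ptgds moved from the sixth rank in sham to the third at 14 days, with 48.8 ± 4.65 RPKM (SD, n = 3) and no overlap with its neighbours.

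The cyclooxygenases come first. Ptgs1 lies on mouse chromosome 2 (chr2:36230426-36252272, plus strand, GRCm38) and Ptgs2 on chromosome 1 (chr1:150100031-150108227, plus strand). The 250 bases before each RefSeq start (GRCm38.p6, chr2:36230176-36230425 and chr1:150099781-150100030, both on the plus strand) are shown because the members of this pair moved in opposite directions. Capitals mark a PU.1 motif, the site of a macrophage transcription factor, in Ptgs1, and a C/EBP motif in Ptgs2.
Ptgs1: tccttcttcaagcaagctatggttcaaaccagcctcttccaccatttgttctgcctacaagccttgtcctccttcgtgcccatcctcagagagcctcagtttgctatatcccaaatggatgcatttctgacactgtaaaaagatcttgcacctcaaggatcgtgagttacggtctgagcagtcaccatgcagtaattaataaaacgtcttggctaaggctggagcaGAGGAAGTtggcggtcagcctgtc
Ptgs2: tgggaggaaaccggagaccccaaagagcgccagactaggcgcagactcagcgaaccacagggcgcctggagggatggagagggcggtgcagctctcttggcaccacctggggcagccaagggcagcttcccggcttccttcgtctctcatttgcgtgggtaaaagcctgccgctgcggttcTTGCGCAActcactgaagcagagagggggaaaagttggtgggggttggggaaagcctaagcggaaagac
The GAGGAAGT of Ptgs1 lies at bases -24 to -17 from the start and the TTGCGCAA of Ptgs2 at bases -69 to -62. Just after the Ptgs2 start, at bases 5 to 30, a cyclic AMP response core (TGACGT, here read on the minus strand) and an E-box (CACGTG) share 2 bases, and capitals mark both.
Ptgs2 start: tcaccactACGTCACGTGgagtccgc
These letters were searched on both strands in windows of 250 bases before to 50 after the start. GAGGAAGT was found in 3.2% of 32851 RefSeq promoters, TTGCGCAA in 0.183%, TGACGT in 7.51% and CACGTG in 7.15%. The letters were chosen after these sequences were seen, so the shares do not measure how unusual a match is. A match describes the letters and is not evidence of binding.

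Ptgs1 fell to nearly the same low level at 3 and at 14 days and stood near the sham level between them. Its level was 659, 521 and 530.5 CPM in sham replicates 2, 3 and 4, and 313, 308 and 278 CPM at 3 days. At 7 days it was 579, 568 and 440.4 CPM and at 14 days 309.7, 327 and 328 CPM. The libraries of 3 and of 14 days all lay below every sham library, and those of 7 days overlapped sham. The log2 fold change was -0.93 ± 0.15 (SE) at 3 days, a 1.90-fold lower level, and -0.83 ± 0.15 at 14 days (edgeR quasi-likelihood, adjusted p = 0.000855 and 0.00396). At 7 days it was -0.11 ± 0.15 (adjusted p = 0.682 by the same test). Both falls passed in all 20 alternative analyses. The annotated antisense gene Gm43621 shares 148 of the 3884 exonic bases of Ptgs1, and the strand setting of the counting is not given in the sources used here.

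Ptgs2 was nearly silent in sham and rose at 3 days. It had 0, 2 and 4 counts in sham and 45, 116 and 150 counts at 3 days, which is 0, 0.457 and 1.12 CPM against 10.2, 17.6 and 14.4 CPM. At 7 days it had 2, 8 and 17 counts (0.419, 1.41 and 2.27 CPM) and at 14 days 15, 14 and 15 counts (2.26, 3.27 and 3.34 CPM). The 3 libraries of 3 days lay above all 9 others, and the sham and 7-day libraries overlapped. The log2 fold change against sham was 4.94 ± 0.71 at 3 days (edgeR quasi-likelihood, adjusted p = 0.000288). Summed over libraries, the counts gave a rate ratio of 35.3 with an exact 95% interval of 16.0 to 96.8, which covers counting error only. With so few sham counts the size of this change turned on single libraries: it was 4.15 without sham replicate 2 and 6.07 without sham replicate 4, and it stayed past the threshold in both. On the log2(RPKM + 1) scale, which compresses low values, limma gave 1.86.

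At 7 days the change of Ptgs2 was 1.66 ± 0.80 and missed the threshold (edgeR quasi-likelihood, adjusted p = 0.202). Leaving out 1 library moved this value between 0.89 (without sham replicate 2) and 2.81 (without sham replicate 4). At 14 days it was 2.68 ± 0.76 and passed (adjusted p = 0.0373, edgeR quasi-likelihood), but this call was lost in 8 of 18 alternatives. It was lost without sham replicate 2 (change of 1.89) or 3, without 3-day replicate 2 or 3, and without any 1 of the 14-day replicates, with adjusted p between 0.0551 and 0.110. Without sham replicate 4 it was larger, at 3.81. As a share of the summed RPKM of both cyclooxygenases, Ptgs2 was 0, 0.0743 and 0.179% in the sham libraries, 2.71, 4.62 and 4.21% at 3 days, 0.0613, 0.210 and 0.436% at 7 days and 0.615, 0.843 and 0.856% at 14 days. Ptgs1 therefore remained the larger part of cyclooxygenase RNA in every library, also at 3 days. These shares are a description and were not tested.

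Ptgs2 is also an endothelial and a monocyte gene in inflamed tissue, and markers of both cell types are set beside it here. The sum of 8 endothelial markers was 40.9 to 163 CPM in sham, 216 to 581 CPM at 3 days, 47.6 to 60.4 CPM at 7 days and 361 to 382 CPM at 14 days. All 8 rose at 3 days and 4 of 8 at 14 days, and Cldn5 was at 0 in 2 libraries of 7 days. The endothelial sums of 3 and 14 days overlapped, with 1 of 8 markers lower at 14 days, while Ptgs2 fell between these times. The sum of 8 markers of monocyte-derived macrophages was 119 to 293 CPM in sham, 1178 to 1660 CPM at 3 days, 273 to 643 CPM at 7 days and 784 to 905 CPM at 14 days. Their part in the change of Ptgs2 was not tested. In 3-day replicates 1, 2 and 3 the endothelial sum was 216, 247 and 581 CPM, and Ptgs2 was 10.2, 17.6 and 14.4 CPM.

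**Figure D2:**
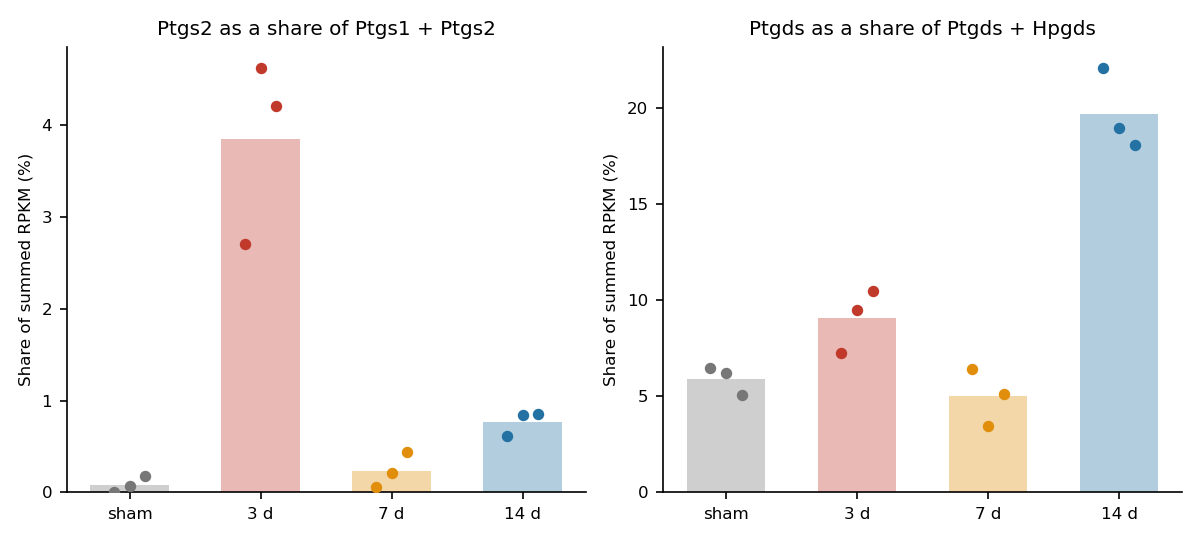
Ptgs2 as a percent of the summed RPKM of Ptgs1 and Ptgs2 (left) and Ptgds as a percent of the summed RPKM of Ptgds and Hpgds (right), with bars at the group mean and points for the 3 libraries of each group. The Ptgs2 share is highest at 3 days, between 2.71 and 4.62%, and the Ptgds share at 14 days, between 18.1 and 22.1%.

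Prostaglandin D2 can be made by either of a pair of unrelated enzymes: the hematopoietic synthase Hpgds, which uses glutathione and marks microglia in the nervous system, and the lipocalin-type synthase Ptgds, a secreted protein best known from meninges, choroid plexus and oligodendrocytes. Hpgds lies on chromosome 6 (chr6:65117293-65144908, minus strand) and Ptgds on chromosome 2 (chr2:25466709-25470046, minus strand). Their promoters (chr6:65144731-65144980 and chr2:25469750-25469999, both on the minus strand, RefSeq on GRCm38.p6) are shown because Hpgds holds the same 8 letters of the PU.1 motif as Ptgs1, the other abundant gene here that was low at 3 days. These stretches precede the RefSeq starts, whereas the gene intervals are from GENCODE, which extends both genes further upstream. The Ptgds stretch thus lies wholly, and the Hpgds stretch partly, inside the GENCODE gene, as do all marked letters. Capitals mark the PU.1 motif in Hpgds, and in Ptgds an AP-1 motif followed by an NF-kB motif.
Hpgds: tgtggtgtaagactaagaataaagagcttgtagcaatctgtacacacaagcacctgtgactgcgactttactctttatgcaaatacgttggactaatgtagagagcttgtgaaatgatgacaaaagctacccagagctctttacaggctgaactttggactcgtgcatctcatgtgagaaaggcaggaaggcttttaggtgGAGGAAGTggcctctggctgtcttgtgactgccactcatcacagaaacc
Ptgds: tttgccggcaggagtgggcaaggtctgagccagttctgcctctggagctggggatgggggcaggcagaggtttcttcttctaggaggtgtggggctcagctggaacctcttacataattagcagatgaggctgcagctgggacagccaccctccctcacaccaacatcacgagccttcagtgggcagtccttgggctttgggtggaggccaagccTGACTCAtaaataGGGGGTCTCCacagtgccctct
GAGGAAGT lies at bases -49 to -42 of Hpgds, and here too the letters were chosen after the sequences were seen. In Ptgds, TGACTCA lies at bases -35 to -29 and the NF-kB match at bases -22 to -13, and the AP-1 pattern TGANTCA occurred in 7.81% of all promoters and the NF-kB pattern in 8.46%. No other match to these motifs or to TATAAA (13.6% of all promoters) was found in the 9 members that have a promoter entry, which says only that those letters are not in the window.

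Hpgds fell at 3 days only among the comparisons with sham. Its level was 1344, 1509 and 2061 CPM in sham and 917, 804 and 594 CPM at 3 days, so every 3-day library lay below every sham library. At 7 days it was 1397, 1486.5 and 1277 CPM, overlapping sham, and at 14 days 1158, 1251 and 1232 CPM. The log2 fold change was -1.09 ± 0.19 at 3 days, a 2.12-fold lower level that passed in all 20 alternatives (edgeR quasi-likelihood, adjusted p = 0.00125). It was -0.24 ± 0.19 at 7 days and -0.43 ± 0.19 at 14 days (edgeR quasi-likelihood, adjusted p = 0.433 and 0.160). The fall of Hpgds and Ptgs1 at 3 days stood beside the lower microglial marker sum given above, and the part of that sum in the fall was not tested. At 14 days Ptgs1 fell and Hpgds missed the threshold, with the marker sum also below sham.

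Ptgds stood apart in time: it rose at 14 days and not before. It measured 23.9, 25.6 and 28.3 CPM in sham, 18.4, 21.7 and 17.9 CPM at 3 days and 24.7, 13.6 and 17.8 CPM at 7 days. At 14 days it measured 84.2, 75.3 and 69.7 CPM, so that the lowest of these was above every library of the other groups. The log2 fold change against sham was 1.56 ± 0.22 at 14 days, a 2.95-fold higher level (edgeR quasi-likelihood, adjusted p = 0.000671). The changes at 3 and 7 days were -0.42 ± 0.22 and -0.47 ± 0.23 (edgeR quasi-likelihood, adjusted p = 0.200 and 0.195). The rise at 14 days passed in all 20 alternatives, with values between 1.49 and 1.68. As a share of the summed RPKM of both synthases, Ptgds was 5.07 to 6.49% in sham, 7.27 to 10.5% at 3 days, 3.43 to 6.45% at 7 days and 18.1 to 22.1% at 14 days. Hpgds thus remained the more abundant of the pair in every library.

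Markers of cells known to make Ptgds were set beside this rise. The 8 astrocyte markers summed to 610, 1508 and 5093 CPM in sham and to 2259 to 2651 CPM at 14 days. Markers of meningeal and perivascular fibroblasts (9 genes) summed to 31.9, 53.7 and 201 CPM in sham and to 167 to 199 CPM at 14 days. Of the 8 astrocyte markers 3 rose at 14 days, and of 8 tested fibroblast markers none passed. Ptgds was 23.9, 25.6 and 28.3 CPM in sham replicates 2, 3 and 4. Of these, replicate 4 had the highest sums of both lists among all 12 libraries. The endothelial markers, of which 4 of 8 rose, were also above sham at 14 days. The 8 oligodendrocyte markers summed to 882 to 1661 CPM in sham and 948 to 1383 CPM at 14 days, which overlap. The 7 ependymal and choroid plexus markers summed to 1.51 to 3.92 CPM in sham and 5.12 to 6.18 CPM at 14 days, which is above sham. Only 1 of them had enough counts to be tested, and it did not pass. Among them Ttr was at 0 in sham replicates 2 and 3 and in all 3 libraries of 14 days. The part of any of these cells in the rise of Ptgds was not tested.

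**Figure D3:**
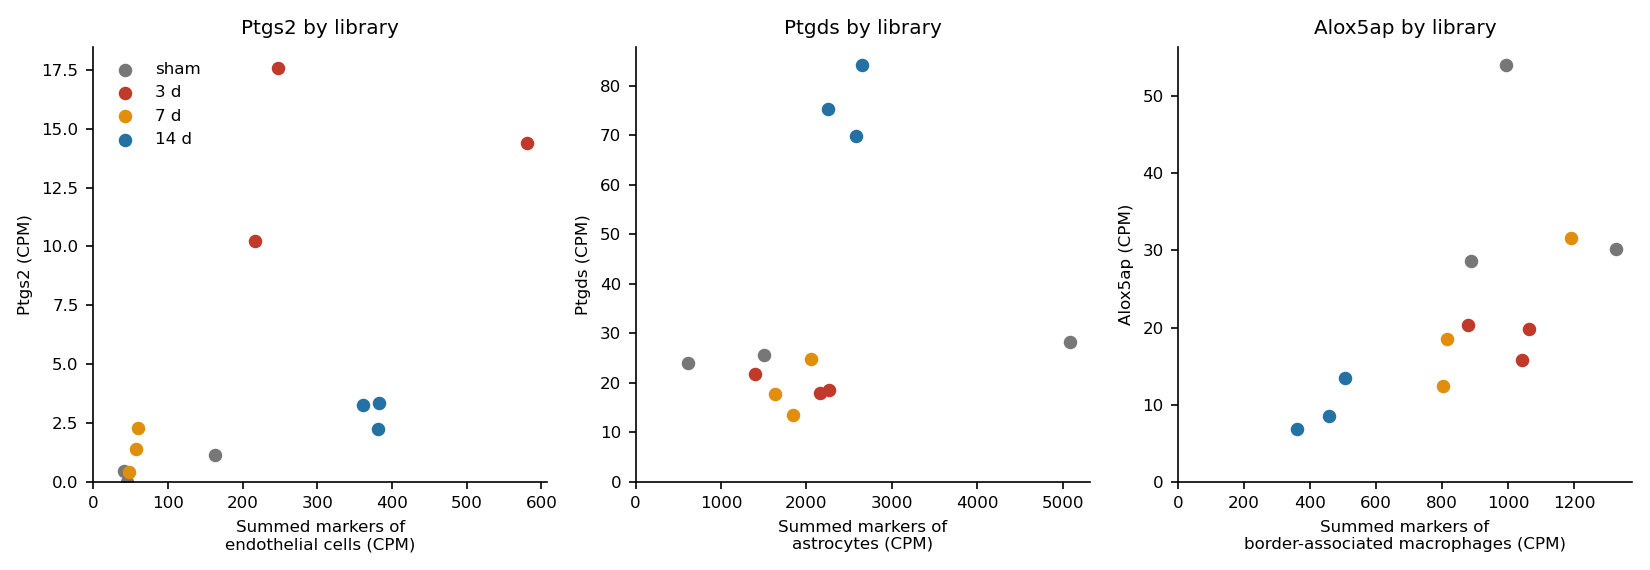
Level of Ptgs2 against the summed endothelial markers (left), of Ptgds against the summed astrocyte markers (middle) and of Alox5ap against the summed markers of border-associated macrophages (right), all in CPM with 1 point per library colored by group. In the middle panel the sham libraries lie at 610, 1508 and 5093 CPM of astrocyte markers with 23.9, 25.6 and 28.3 CPM of Ptgds. The 14-day libraries lie at 2259 to 2651 CPM of astrocyte markers with 69.7 to 84.2 CPM of Ptgds.

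Of the prostaglandin E2 arm, the inducible synthase and the 2 receptors among the 10 genes rose at 3 days. The receptors EP1 (Ptger1) and EP3 (Ptger3), outside the 10, had 3-day changes of 0.50 and -1.02 and did not pass (edgeR quasi-likelihood, adjusted p = 0.222 and 0.224). Ptges, the inducible microsomal synthase usually coupled to cyclooxygenase-2, lies at chr2:30889471-30929863 (minus strand). It had 0, 1 and 2 counts in sham, 20, 31 and 41 counts at 3 days, 13, 10 and 9 counts at 7 days and 11, 11 and 18 counts at 14 days. In CPM this was at most 0.560 in sham and at least 1.20 in any library after injury, so injured and sham libraries did not overlap. The log2 fold changes were 4.21 ± 0.75, 2.98 ± 0.80 and 3.52 ± 0.78 at 3, 7 and 14 days, and all passed (edgeR quasi-likelihood, adjusted p = 0.00149, 0.0306 and 0.0110). The summed counts gave rate ratios to sham of 20.9 (exact 95% interval 6.92 to 103), 8.66 (2.71 to 44.2) and 12.6 (4.01 to 63.7).

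The 3-day rise of Ptges passed in all 19 alternatives that gave a value, with a change of 3.43 without sham replicate 2 and 5.25 without sham replicate 4. The 7-day call was lost in 6 of 18 alternatives, among them without sham replicate 2 (2.21, adjusted p = 0.0641, edgeR quasi-likelihood) or 3 (adjusted p = 0.0611) and without 7-day replicate 1 (adjusted p = 0.0953) or 3 (adjusted p = 0.0534), and it was 4.04 without sham replicate 4. The 14-day call was lost without 14-day replicate 3 (edgeR quasi-likelihood, adjusted p = 0.0576), and its size was 2.74 without sham replicate 2 and 4.57 without sham replicate 4. The housekeeping synthases Ptges2 and Ptges3 had changes of 0.38 and -0.03 at 3 days and passed no comparison. The endothelial and monocyte-derived marker sums given for Ptgs2 were above sham at 3 and 14 days for Ptges too, and their part was not tested.

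Of the 2 receptors in the set, EP4 (Ptger4, chr15:5206661-5244187, minus strand) rose at all 3 times. Its level was 14.8, 9.37 and 14.6 CPM in sham, 26.0, 31.9 and 27.4 CPM at 3 days, 23.0, 30.1 and 28.5 CPM at 7 days and 34.7, 27.6 and 29.0 CPM at 14 days. Every library after injury lay above every sham library. The log2 fold changes were 1.13 ± 0.23, 1.07 ± 0.23 and 1.23 ± 0.23 (edgeR quasi-likelihood, adjusted p = 0.00373, 0.0119 and 0.00444). The 7-day call was lost in 1 of 20 alternatives, a fit of only the groups compared (adjusted p = 0.129, edgeR quasi-likelihood), and the other calls in none. The endothelial and monocyte-derived marker sums were above sham at 3 and 14 days. At 7 days the endothelial sum was 47.6 to 60.4 CPM, within the sham range, and the monocyte-derived sum was 273 to 643 CPM against 119 to 293 CPM in sham, with 2 of 6 tested markers higher. The part of these cells in the rise of Ptger4 was not tested.

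EP2 (Ptger2, chr14:44988195-45003820, plus strand), the other receptor that couples prostaglandin E2 to cyclic AMP, was sparse in sham and highest at 3 days. It had 1, 3 and 1 counts in sham, 17, 65 and 65 at 3 days, 7, 23 and 11 at 7 days and 6, 7 and 8 at 14 days. In CPM the sham libraries reached 0.686 at most, and the 3-day libraries were 3.87, 9.86 and 6.24, so all of the latter were higher. The change was 4.17 ± 0.69 at 3 days and 2.65 ± 0.73 at 7 days (edgeR quasi-likelihood, adjusted p = 0.000868 and 0.0356), and 1.94 ± 0.77 at 14 days, which missed the threshold (adjusted p = 0.128). The 14-day value lay between 1.44 (without sham replicate 2) and 2.70 (without sham replicate 3) when 1 library was left out. At 3 days it was 4.91 without sham replicate 3, still past the threshold. The 7-day call was lost in 7 of 18 alternatives, including without sham replicate 2 or 4, without 7-day replicate 3 (1.99, adjusted p = 0.111 by edgeR) and without 14-day replicate 2 or 3. Without sham replicate 3 the 7-day change was 3.38. For Ptger2 too, the endothelial and monocyte-derived marker sums given for Ptgs2 were above sham at 3 and 14 days. The monocyte-derived sum was 1178 to 1660 CPM at 3 days and 784 to 905 CPM at 14 days. The part of these cells in the changes of Ptger2 was not tested.

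The balance of the receptors moved as well. Ptger2 made up 1.81, 11.7 and 3.35% of the summed RPKM of both receptors in sham, 21.2, 35.8 and 29.2% at 3 days, 10.3, 19.5 and 8.52% at 7 days and 4.50, 9.67 and 10.0% at 14 days. Ptger4 was the larger part in every library, and only at 3 days did all libraries lie above those of sham. Antisense genes overlap exons of both receptors: Gm15937 shares 1015 and Ttc33 82 of the 6648 exonic bases of Ptger4, and Gm17173 shares 246 and Gm49364 144 of the 5193 exonic bases of Ptger2. Without the strand setting, reads in these stretches cannot be assigned to one of the partners.

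**Figure D4:**
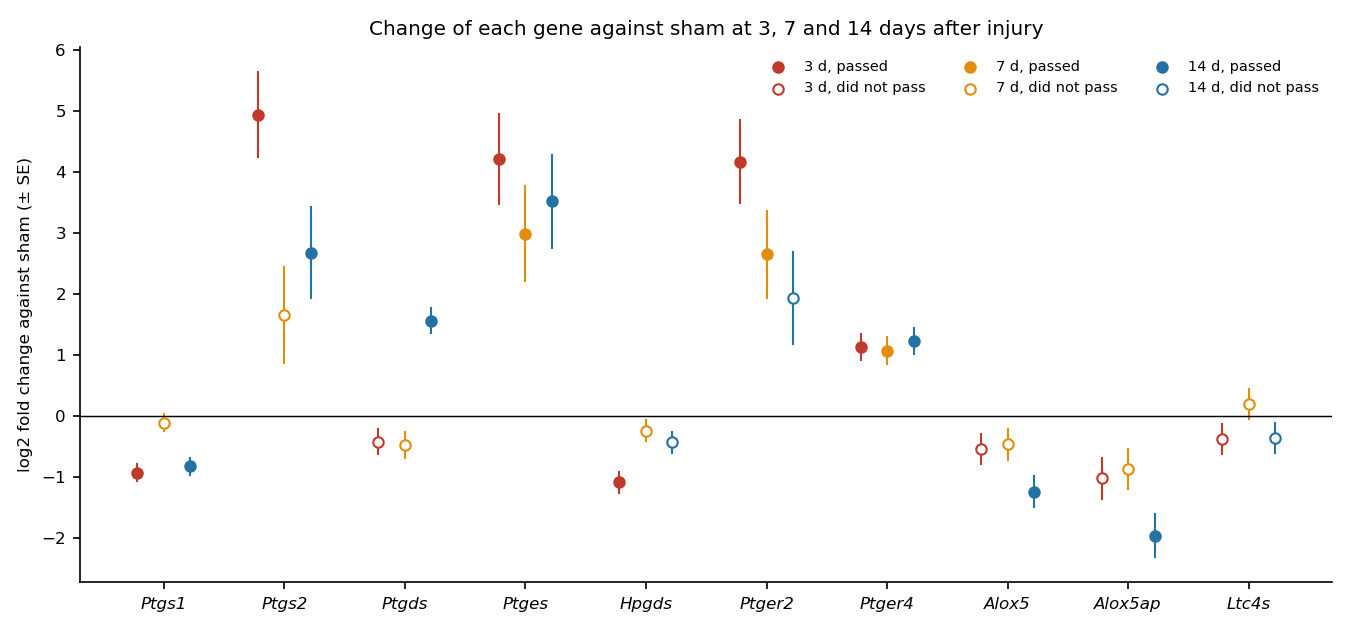
Log2 fold change of each gene against sham (vertical axis, points) with its SE (bars) at 3, 7 and 14 days, with filled points for changes past an adjusted p of 0.05 and open points for the rest. Ptgs2, Ptges, Ptger2 and Ptger4 have filled points above 0 at 3 days, and Ptgs1, Alox5 and Alox5ap have filled points below 0 at 14 days.

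On the leukotriene side the early enzymes fell by 14 days. Alox5ap (chr5:149264767-149288153, plus strand), whose product FLAP presents arachidonate to 5-lipoxygenase at the nuclear membrane, measured 54.0, 28.6 and 30.2 CPM in sham and 20.3, 19.9 and 15.9 CPM at 3 days. It measured 31.6, 18.5 and 12.4 CPM at 7 days and 13.4, 6.78 and 8.46 CPM at 14 days. The 14-day libraries all lay below the 3-day and sham libraries, and the 7-day libraries overlapped sham. The change was -1.96 ± 0.37 at 14 days, a 3.90-fold lower level that passed in all 20 alternatives (edgeR quasi-likelihood, adjusted p = 0.00414).

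At 3 days the change of Alox5ap was -1.02 ± 0.35 and lay at the edge of the threshold (edgeR quasi-likelihood, adjusted p = 0.0512). It passed in 9 of 20 alternatives, including without sham replicate 3 or 4, without 7-day replicate 1 or 4, and without 14-day replicate 1, with adjusted p down to 0.00689. At 7 days it was -0.87 ± 0.35 (adjusted p = 0.128, edgeR quasi-likelihood). The antisense gene Gm19719 shares 189 of its 1420 exonic bases.

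Alox5 (chr6:116410077-116461178, minus strand), the lipoxygenase itself, measured 56.2, 60.4 and 104 CPM in sham, 45.1, 55.2 and 50.7 CPM at 3 days, 74.6, 47.0 and 38.0 CPM at 7 days and 33.5, 28.3 and 31.2 CPM at 14 days. The 14-day libraries lay below all 9 others. The change was -1.24 ± 0.27 at 14 days (edgeR quasi-likelihood, adjusted p = 0.0107), and -0.54 ± 0.27 and -0.47 ± 0.27 at 3 and 7 days (adjusted p = 0.165 and 0.278). The 14-day call was lost without 14-day replicate 2 or 3 (edgeR quasi-likelihood, adjusted p = 0.0567 and 0.0523), with changes of -1.17 and -1.24.

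Ltc4s (chr11:50236461-50238616, minus strand), which joins glutathione to leukotriene A4, passed no test. Its level was 21.6, 23.5 and 24.4 CPM in sham, 16.4, 19.0 and 17.9 CPM at 3 days, 38.3, 18.5 and 22.9 CPM at 7 days and 17.5, 20.6 and 15.8 CPM at 14 days. The libraries of 3 and 14 days lay below sham, with changes of -0.38 ± 0.26 and -0.37 ± 0.26 (edgeR quasi-likelihood, adjusted p = 0.322 and 0.399), and the 7-day value was 0.19 ± 0.26. Gm26542, on the opposite strand, shares 268 of the 1014 exonic bases of Ltc4s.

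Border-associated macrophages of meninges and vessels, which also use this branch, had lower markers at 14 days. Their 8 markers summed to 888 to 1328 CPM in sham, 880 to 1064 CPM at 3 days, 804 to 1191 CPM at 7 days and 360 to 506 CPM at 14 days. Of 7 tested markers 3 fell and 1 rose at 3 days, 1 fell at 7 days and 6 fell at 14 days. The microglial sum was also below sham at 3 and 14 days, and 3 of 10 microglial markers fell at 14 days. The part of either cell type in the fall of Alox5 and Alox5ap was not tested. In sham replicates 2, 3 and 4 the border-associated macrophage sum was 995, 888 and 1328 CPM. Alox5ap was 54.0, 28.6 and 30.2 CPM in these libraries, and Alox5 was 56.2, 60.4 and 104 CPM. Mast cells, a classical source of prostaglandin D2 and cysteinyl leukotrienes, had markers (9 genes) summing to 5.66 to 29.5 CPM, and their proteases Cma1 and Mcpt4 were at 0 in all 12 libraries. Neutrophil markers (9 genes) summed to 600.2 to 722 CPM in sham and 745 to 1169 CPM after injury. Of these Ly6g was at 0 in every sham library. In sham replicate 4, with a sum of 722 CPM, S100a8, Retnlg and Camp were at 0 too, so other genes of the list made up that sum. Of 3 tested neutrophil markers 1 rose at 3 days and none at 14 days.

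Direct comparison of the times after injury separated the genes further. From 3 to 7 days 2 of the 10 rose (5.85% of all tested genes rose) and 1 fell (7.52% of all), beside 13.4% of all that changed. The groups of these times did not overlap for 2 genes that were higher (19.5% of all) and 2 that were lower (20.2% of all), beside 39.7% in all. Ptgs1 rose by 0.82 ± 0.15 and Hpgds by 0.85 ± 0.19, while Ptgs2 fell by 3.28 (edgeR quasi-likelihood, adjusted p = 0.00516, 0.0110 and 0.00387). The rise of Hpgds was lost without 3-day replicate 3 (0.70, edgeR adjusted p = 0.0694), and the fall of Ptgs2 was larger without 7-day replicate 4 (-3.89). In the same interval 5 of the 10 microglial markers rose and all 8 endothelial markers fell. The part of those cells in these changes was not tested.

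From 7 to 14 days Ptgds rose by 2.04 ± 0.23 and Ptgs1 fell by 0.72 (edgeR quasi-likelihood, adjusted p = 0.00328 and 0.0281), so 2 of the 10 changed beside 2.19% of all tested genes (1.35% rose and 0.835% fell). The groups did not overlap for 1 gene that was higher (14% of all) and 3 that were lower (16.7% of all), beside 30.7% in all. The Ptgds rise held in all 20 alternatives. In the same interval 7 of 8 endothelial, 2 of 8 tested fibroblast, 2 of 8 astrocyte and 1 of 6 tested monocyte-derived markers rose. Fibroblast sums were 24.1 to 87.9 CPM at 7 days and 167 to 199 CPM at 14 days. Astrocyte sums were 1636 to 2059 CPM and 2259 to 2651 CPM. Of 7 tested border-associated macrophage markers 1 fell, and no microglial marker passed. What part these cells had in the changes was not tested. The Ptgs1 fall was lost in 9 of 20, namely with limma at either offset and without 3-day replicate 1 or 2, 7-day replicate 1 or 3 or any 1 of the 14-day replicates (edgeR adjusted p 0.0561 to 0.169), with changes of -0.65 to -0.70.

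From 3 to 14 days 4 of the 10 changed, beside 7.31% of all tested genes. Of these 2 rose (2.17% of all) and 2 fell (5.14% of all). The groups did not overlap for 2 genes that were higher (20.1% of all) and 4 that were lower (23% of all), beside 43.1% in all. Ptgds rose by 1.98 ± 0.22 (edgeR quasi-likelihood, adjusted p = 0.000172) and this held in all 20 alternatives. Ptgs2 fell by 2.26 and Ptger2 fell by 2.23 (edgeR quasi-likelihood, adjusted p = 0.0214 and 0.0274), and each call was lost without 3-day replicate 2 or 3 or any 1 of the 14-day replicates, with adjusted p of 0.0869 to 0.157. Hpgds rose by 0.65 ± 0.19 (edgeR quasi-likelihood, adjusted p = 0.0476), which was lost in 10 of 20 alternatives, including without 3-day replicate 2 or 3, 7-day replicate 1 or any 1 of the 14-day replicates (adjusted p of 0.0549 to 0.228).

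Beyond the 10 genes, 48 other genes of these pathways were listed by function, and 34 had enough counts to be tested. At 3 days 7 of the 34 rose and 3 fell, beside 10.9% and 9.17% of all tested genes. At 7 days 4 rose and 3 fell, beside 4.61% and 4.67% of all, and at 14 days 2 rose and 3 fell, beside 5.02% and 4.79%. At either sign 20%, 9.28% and 9.82% of all tested genes changed, and these shares also stand beside the counts of each list below. The median changes of the 34 were -0.01, 0.03 and -0.02. These lists too were chosen with earlier results of these data known. The 14 untested genes had at most 17 counts in any library, among them both prostaglandin D2 receptors (Ptgdr, Ptgdr2), the thromboxane receptor Tbxa2r and the leukotriene B4 receptors Ltb4r1 and Ltb4r2. At such counts a change was not detectable.

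Of 6 tested genes of arachidonate release, 2 rose at 3 days, 2 at 7 days and 1 at 14 days, and none fell. The calcium-independent phospholipase Pla2g6 had 7.11, 11.2 and 10.4 CPM in sham and 21.4, 25.2 and 21.3 CPM at 3 days, a change of 1.26 ± 0.27 (edgeR quasi-likelihood, adjusted p = 0.00547). At 7 days Pla2g6 was 0.99 ± 0.27 higher (adjusted p = 0.0363, edgeR), a call lost in 13 of 20 alternatives, including the loss of any 1 of sham replicate 2, 7-day replicate 1 or 4, and every 3-day or 14-day library. Pla2g4c, a smaller phospholipase, rose by 1.63 ± 0.45 at 3 days (edgeR adjusted p = 0.0200), lost without sham replicate 3 or 3-day replicate 1 or 2 (adjusted p 0.0573 to 0.0807). The diacylglycerol lipase Daglb, which makes an arachidonate-bearing endocannabinoid, measured 163, 114 and 112 CPM in sham and 265, 204 and 226 CPM at 7 days. It rose by 0.83 ± 0.18 at 7 days and 0.62 ± 0.18 at 14 days (edgeR adjusted p = 0.0109 and 0.0386). The 14-day call of Daglb was lost without sham replicate 3 or 4, 3-day replicate 1 or 3 or any 1 of the 14-day replicates (adjusted p 0.0523 to 0.143). The main cytosolic phospholipase Pla2g4a had a mean of 119.5 CPM in sham and 121, 115 and 94.3 CPM at 3, 7 and 14 days, and it passed no comparison.

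None of the 6 other tested prostanoid synthases passed against sham. Thromboxane synthase (Tbxas1) was the most abundant of them, with 598, 505 and 445 CPM in sham, 553, 470.1 and 361 CPM at 3 days, 826, 704 and 606 CPM at 7 days and 470.3, 529.7 and 586 CPM at 14 days. The 7-day libraries all lay above those of sham. Aldose reductase (Akr1b3), which can make prostaglandin F2-alpha, had 19.2 to 26.9 CPM in sham and 28.6 to 40.0 CPM at 7 days, and its groups did not overlap at that time either.

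Of 6 tested genes of prostanoid inactivation and transport, 1 rose and 1 fell at 3 days, none passed at 7 days and 1 fell at 14 days. Hpgd, the dehydrogenase that inactivates prostaglandins, measured 164, 67.9 and 107 CPM in sham, 35.1, 47.3 and 31.4 CPM at 3 days, 70.8, 92.5 and 41.7 CPM at 7 days and 37.1, 41.4 and 35.9 CPM at 14 days. It fell by 1.57 at both 3 and 14 days (edgeR quasi-likelihood, adjusted p = 0.00319 and 0.00671) and was -0.73 ± 0.31 at 7 days (adjusted p = 0.146). Both falls held in all 20 alternatives. Slco2a1, the transporter that takes prostaglandins up for breakdown and is abundant in endothelium, rose by 2.59 ± 0.67 at 3 days, from 3, 5 and 14 counts to 49, 68 and 98 counts (edgeR adjusted p = 0.0144), and by 3.71 without sham replicate 4. The endothelial markers given above rose at the same time, and their part in this was not tested. The efflux pump Abcc1 had 62.7 to 75.2 CPM in sham and 54.7 to 65.3 CPM at 7 days, which overlap.

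Among 3 other tested prostanoid receptors, the prostacyclin receptor Ptgir rose at 3 days, from 0, 2 and 2 counts to 13, 15 and 34 counts (3.20 ± 1.00, edgeR adjusted p = 0.0358). That call was lost without any 1 of 8 libraries, namely sham replicates 2 and 3, all 3-day replicates, 7-day replicate 3 and 14-day replicates 1 and 3, with adjusted p of 0.0501 to 0.110. Its size was 2.42 without sham replicate 2, and 4.02 with the replicate block and 0.75 on the log2(RPKM + 1) scale. The EP3 receptor Ptger3 had 17, 32 and 15 counts in sham and 4, 9 and 2 counts at 7 days. It fell by 2.39 (edgeR adjusted p = 0.0306), which was lost without sham replicate 3 or 7-day replicate 1 or 4 (adjusted p 0.0854 to 0.0992) and was -3.14 without 7-day replicate 3. At 7 days 6 of 9 neuronal markers fell, with sums of 886 to 1219.9 CPM against 1645 to 3314 CPM in sham, and their part in this fall was not tested. The EP1 receptor Ptger1 had 17.9 to 33.0 CPM in sham and 19.3 to 29.0 CPM at 14 days.

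Downstream in the leukotriene branch, 3 of 10 other tested enzymes rose and 1 fell at 3 days, 2 rose and 1 fell at 7 days, and 1 rose and 1 fell at 14 days. Cyp4f18, which inactivates leukotriene B4 in mouse myeloid cells, had 3.33, 1.60 and 2.80 CPM in sham, 17.5, 19.4 and 13.5 CPM at 3 days and 7.23, 6.78 and 7.13 CPM at 14 days. Its changes were 2.67 ± 0.37, 2.29 ± 0.37 and 1.42 ± 0.38 at 3, 7 and 14 days (edgeR quasi-likelihood, adjusted p = 0.000228, 0.00224 and 0.0268). The 14-day call was lost without sham replicate 3 or any 1 of the 14-day replicates (adjusted p 0.0666 to 0.0853). Ggt5, which turns leukotriene C4 into D4, fell at all 3 times, from 80.7, 70.2 and 65.5 CPM in sham to 28.0, 24.7 and 39.0 CPM at 3 days and 20.8, 20.6 and 22.7 CPM at 14 days. Its changes were -1.23 ± 0.23, -0.95 ± 0.23 and -1.76 ± 0.23 (edgeR adjusted p = 0.00190, 0.0194 and 0.000373), and the 7-day call was lost without 7-day replicate 3 (-0.77, adjusted p = 0.0571).

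Dpep2, the next enzyme of that chain, rose by 1.79 ± 0.44 at 3 days (edgeR adjusted p = 0.0104, and 0.0558 without 3-day replicate 3). Mgst2, which can replace Ltc4s outside blood cells, had 5, 6 and 1 counts in sham, 26, 19 and 32 at 3 days and 33, 17 and 19 at 7 days. It rose by 2.22 ± 0.61 at 3 days and 2.29 ± 0.61 at 7 days (edgeR adjusted p = 0.0192 and 0.0299). The 3-day call of Mgst2 was lost without sham replicate 2 or 3-day replicate 1, and the 7-day call without sham replicate 2 or 4 or 7-day replicate 1 (adjusted p 0.0504 to 0.128). Lta4h, which makes leukotriene B4, had 79.7 ± 16.8 CPM (SD, n = 3) in sham and 71.6 to 87.6 CPM as group means after injury, and passed no comparison.

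The cysteinyl leukotriene receptor Cysltr1 fell at all 3 times, and it was the only one of 3 tested leukotriene receptors to pass. It measured 91.4, 88.0 and 198 CPM in sham, 49.4, 39.9 and 33.8 CPM at 3 days, 50.3, 63.6 and 39.4 CPM at 7 days and 54.9, 64.1 and 47.4 CPM at 14 days, so every injured library lay below every sham library. Its changes were -1.62 ± 0.30, -1.30 ± 0.29 and -1.18 ± 0.29 (edgeR quasi-likelihood, adjusted p = 0.00175, 0.0145 and 0.0199). The 7-day call was lost without 7-day replicate 1 or 4 (adjusted p = 0.0540 and 0.0570), and the 14-day call without any 1 of the 14-day replicates (adjusted p 0.0513 to 0.102).

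**Figure D5:**
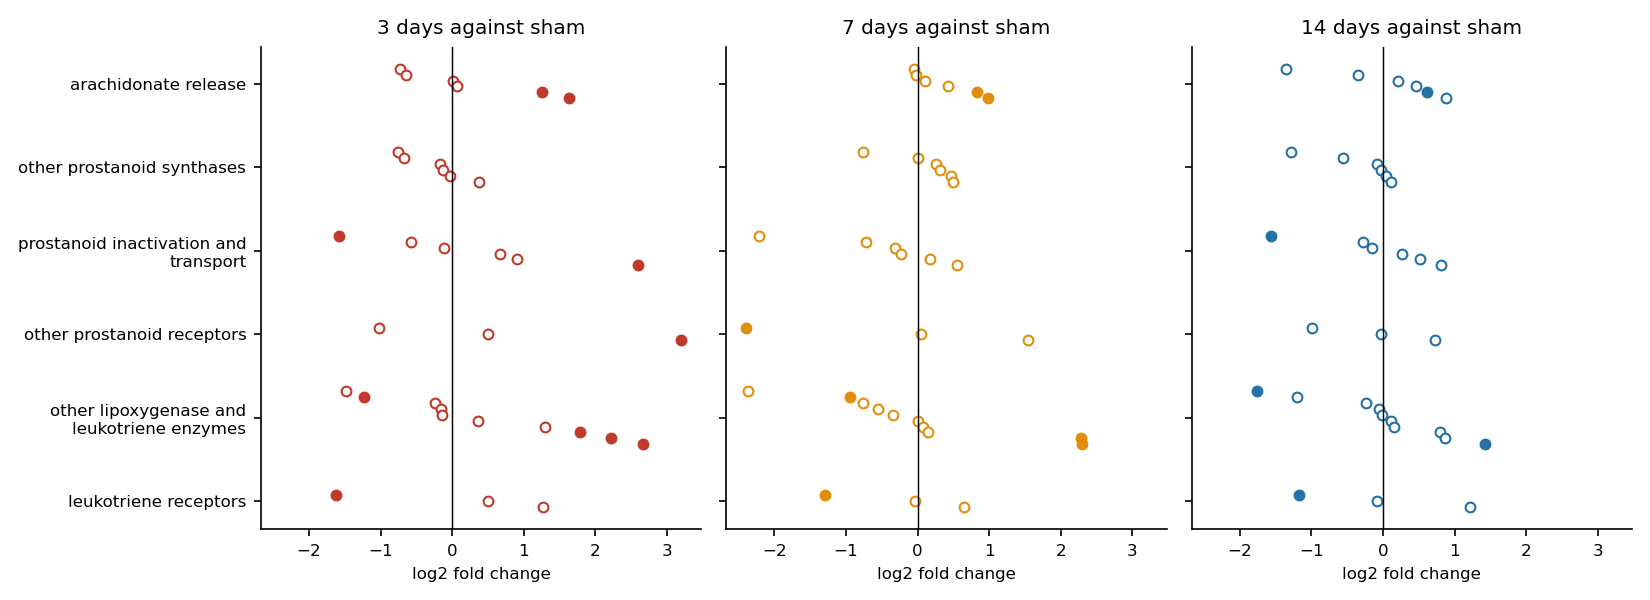
Log2 fold change against sham (horizontal axis) of the 34 other tested genes, grouped by function (vertical axis, 6 groups), at 3, 7 and 14 days, with filled points for changes past an adjusted p of 0.05. Cyp4f18 and Mgst2 are the filled points at 2.29 at 7 days among the leukotriene enzymes, and no point is filled among the other prostanoid synthases.

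The genes whose course over the 12 libraries was most like each of the 10 were ranked by the root mean square difference of centered log2 CPM, over 9462 genes of at least 10 CPM on average. For Ptgs1 the nearest were Srgap2 (0.11), Lpcat2 (0.13) and Sfxn4 (0.14), and for Hpgds they were Gtdc1, Tmem135 and Mrps14 (all 0.13). For Ltc4s they were Tbkbp1 (0.14), Epb41l2 and Lrch1 (both 0.16), and for Ptger4 Rell1 (0.17), Nrp1 (0.19) and C3ar1 (0.21). The sparse genes had less close neighbours: Emp1 (0.52), Vwf (0.56) and Vim (0.66) for Ptgs2, Nes (0.34), Jag1 and Csf1 (both 0.40) for Ptges, and Rsad2 (0.50), Oas3 (0.52) and E2f2 (0.57) for Ptger2. Clu and Sparcl1 (both 0.45) and St8sia6 (0.54) were nearest to Ptgds. Gabbr1 and Apc (both 0.26) and F13a1 (0.27) were nearest to Alox5, and Cbr2 (0.39), Fam72a (0.40) and Zc3h8 (0.41) to Alox5ap. F13a1 and Cbr2 are among the border-associated macrophage markers summed above, and Vwf is a known endothelial gene. All of these libraries share their groups and depths, so the ranking is a description.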

How the data were processed

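RNA from captured GFP-positive nuclei of mouse cord went through single-primer isothermal amplification ahead of library preparation, per the labels' protocols. The authors deposited a table of raw read counts by Ensembl ID and a second table of RPKM, in which the authors divided by gene length and library total. FeatureCounts 1.4.6-p3 is named in the submitters' processing notes, with GRCm38 and mm10 as builds. No source used here gives the aligner, whether counting used strand, or what was done with multi-mapping reads. All 12 columns were matched to samples by name.

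The main analysis used edgeR 4.0.16 in R 4.3.3. Genes passing filterByExpr (18451, holding 99.6% of counts) were TMM-scaled, and 1 quasi-likelihood model of the 4 groups took in all 12 libraries (common biological coefficient of variation 0.271). Benjamini-Hochberg adjustment ran over every tested gene, and calls were made at 0.05. Standard errors are the absolute log2 fold change over the root of F. The script was tested on simulated data. RPKM served for levels between genes and for shares. Depth limits the precision of sparse genes, and exact intervals of count ratios cover counting error only.

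As alternatives, libraries were scaled by median ratios, counts were analysed with DESeq2 1.42.0, without a count filter or with a stricter one, with the replicate number as a block, with the compared groups alone, and with limma 3.58.1 on log2(RPKM + 1) or log2(RPKM + 0.1), and each library was left out in turn. For genes other than the 10, these alternatives were added after seeing the data. The 10 genes and all gene lists were chosen with earlier results of these data known. Other pathway genes were named by a rule: per list and comparison with sham, up to 4 called genes in order of adjusted p, and where none passed, the 2 most abundant, as values. Genes nearest in course were the 3 with the smallest difference among tested genes of at least 10 CPM, predicted genes left out. Pla2g4a, Ptges2, Ptges3 and Lta4h, and the untested receptors, are outside this rule and were named after their values were seen. The 14 marker lists for cell types hold 114 genes. Lists given above without all of their test results passed as follows against sham at 3, 7 and 14 days. Of 9 neuronal markers 8, 6 and 2 fell, of 8 astrocyte markers 2 rose, 1 fell and 3 rose, of 8 oligodendrocyte markers 1 rose, 3 fell and 1 fell, and of 8 oligodendrocyte precursor markers 1, 2 and 1 fell. Monocyte-derived macrophage markers (6 tested) rose in 3, 2 and 2 cases, and fibroblast (8 tested), B and T cell (1 tested), platelet (2 tested) and ependymal markers (1 tested) in 0. The 1 tested mast cell marker rose at 3 days and fell at 7 days.

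The main model did not treat replicate numbers as a pairing. Correlations of deviations of the 13 same-numbered pairs were -0.30 to 0.07. Differently numbered pairs were not compared, so these values cannot settle whether libraries of equal number share a batch. Promoters are from RefSeq on GRCm38.p6, where 9 of the 10 genes matched, and gene positions are from the GENCODE annotation of GRCm38. The motif letters were chosen after the sequences were seen. Python 3.11.15 with matplotlib 3.10.9 drew the figures.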

Additional observations from a re-analysis of the deposited data

Results flagged for a closer look

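Changes against sham that differed between times after injury, by edgeR's quasi-likelihood test of one time against another with Benjamini-Hochberg adjusted p under 0.05, were found 9 times among the 10 genes. From 3 to 7 days the log2 difference was 0.82 for Ptgs1, -3.28 for Ptgs2 and 0.85 for Hpgds. From 7 to 14 days it was -0.72 for Ptgs1 and 2.04 for Ptgds. From 3 to 14 days it was -2.26 for Ptgs2, 1.98 for Ptgds, 0.65 for Hpgds and -2.23 for Ptger2. These comparisons share their groups. The sham libraries cancel out of each log2 difference, but they enter the shared estimate of spread behind the calls.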

How the results depend on the processing

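Over the 10 genes and 6 comparisons, 1175 alternative values were computed: 1082 kept direction and side of the threshold, 55 lost a call, 24 gained one and 14 turned direction, none of them for a called change. Turned values were near 0. For Alox5 from 3 to 7 days they were -0.040 with the replicate block and -0.0026 and -0.0055 with limma on log2(RPKM + 1) and log2(RPKM + 0.1), and for Ltc4s from 3 to 14 days -0.0045 with the block. The others came from leaving out 1 library, which gave these ranges: at 7 days against sham -0.20 to 0.0027 for Ptgs1 (turned without sham replicate 2) and -0.15 to 0.39 for Ltc4s (turned without 7-day replicate 1), from 3 to 7 days -0.29 to 0.15 for Ptgds (turned without 3-day replicate 2 or 7-day replicate 3), -0.12 to 0.051 for Ptger4 (turned without 3-day replicate 2 or 7-day replicate 1), -0.24 to 0.26 for Alox5 and -0.26 to 0.41 for Alox5ap (both turned without 7-day replicate 1), and from 3 to 14 days -0.055 to 0.13 for Ltc4s (turned without 3-day replicate 1 or 14-day replicate 2). The causes were not tested.

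Counts among the 10 genes moved as follows. The stricter filter left 7 genes, without Ptgs2, Ptges and Ptger2, and gave 3 changes at 3 days, 1 at 7 days and 1 from 3 to 14 days. A fit of only the groups compared gave 0 of 7 at 7 days, where 4 of the 10 had an unadjusted p under 0.05 in the fit of all groups and DESeq2 called 3. Limma on log2(RPKM + 1) gave 1 at 7 days, 5 from 3 to 7 days and 1 from 7 to 14 days, limma on log2(RPKM + 0.1) gave 1 from 7 to 14 days, and no filter gave 4 there. Leaving out 1 library gave 6 to 7 changes at 3 days, 1 to 3 at 7 days, 4 to 7 at 14 days, 2 to 4 from 3 to 7, 1 to 3 from 7 to 14 and 1 to 5 from 3 to 14 days.

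Counts over all tested genes depended more on the setting. Beside 3695 at 3 days, the fit of only 2 groups gave 1817. Beside 1712 at 7 days, DESeq2 gave 2610, no filter 2889, only 2 groups 172 and limma 1137 and 1069 at the offsets of 1 and 0.1. Beside 1811 at 14 days, no filter gave 2822 and only 2 groups 925. Beside 404 from 7 to 14 days, DESeq2 gave 1087, no filter 1562, only 2 groups 1827 and limma at 0.1 gave 218. Beside 1349 from 3 to 14 days, no filter gave 2045 and only 2 groups 4886. Leaving out 1 library gave 1866 to 4152 at 3 days, 827 to 3065 at 7 days, 701 to 2793 at 14 days, 564 to 4539 from 3 to 7 days, 1 to 1774 from 7 to 14 days, 435 to 2627 from 3 to 14 days and 2926 to 6701 for any difference. The replicate block gave 1608 genes from 7 to 14 days in place of 404. Among the 10 genes the block ended the calls of Ptges at 7 days and Hpgds from 3 to 14 days, and it added Alox5ap at 3 and 7 days and from 7 to 14 days. Another scaling moved the median of all genes by at most 0.03. Among the other pathway genes, a fit of only the groups compared ended the 7-day calls of Daglb, Pla2g6, Ptger3, Cyp4f18, Ggt5, Mgst2 and Cysltr1. It also ended Pla2g4c and Mgst2 at 3 days and Daglb, Cyp4f18 and Cysltr1 at 14 days. For these genes the block ended Mgst2 at 3 and 7 days, Pla2g6 at 7 days and Daglb, Cyp4f18 and Cysltr1 at 14 days. Limma at offset 1 ended Pla2g6, Ptger3 and Mgst2 at 7 days, and at 0.1 Pla2g6 at 7 days and Cysltr1 at 14 days.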
